A study of Mus musculus with 14 samples.

Results

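Expression of 10 genes that carry bile acids into and out of liver cells, attach them to amino acids and adjust their amount was measured in the livers of mice bearing pancreatic tumors. They were matched by symbol to the gene names of the liver count table, in which they are 10 of 54532 genes, and all 10 passed the filter on low counts that 15118 genes passed. The livers came from mice aged 8 to 12 weeks and were collected 20 days after orthotopic injection of 100000 KPCY cells at the pancreas tail. KPCY is a pancreatic cancer line from mouse, which expresses a yellow fluorescent protein and keeps a working TRPV4. There were 3 groups: 2 livers of WT mice, 3 livers of TRPV4-KO mice and 3 livers of WT mice given GSK219. The study's methods use the name WT for Piezo1 fl/fl mice, and the TRPV4-KO is a global knockout (Trpv4-/-), not one limited to the liver. GSK219 (GSK2193874), a TRPV4 antagonist, was given by orogastric gavage at 10 mg/kg every 24 hours in cavitron. Whether the WT mice received this vehicle is not stated in the sources used here. The question behind both comparisons is how the liver of a tumor-bearing mouse differs when TRPV4, a calcium-permeable ion channel, is absent or blocked. The study reported smaller pancreatic tumors and lower serum IL-6, TIMP1 and SAA in TRPV4-KO mice than in WT. With GSK219 it reported lower serum levels of these proteins and a tendency to smaller tumors. Differences between the livers thus cannot be told apart from differences in the tumors.

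Bile acids are made from cholesterol in hepatocytes, conjugated mostly with taurine in mice, pumped into the bile canaliculus and taken up again from portal blood at the sinusoidal membrane. Uptake runs through Slc10a1 and the Slco1 carriers, export through ATP-binding cassette pumps, and conjugation through Baat. Nr1h4 encodes FXR, the nuclear receptor that binds bile acids, and Nr0b2 encodes SHP, a corepressor that FXR induces. In inflamed liver, uptake carriers are known to be among the genes that are turned down.

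Total counts ran from 15567031 to 17395299 per liver, and the biological coefficient of variation of the fit was 28.3%. Values below are normalized CPM, that is read counts scaled to library size with edgeR's TMM factors. A gene was called when its Benjamini-Hochberg adjusted p in edgeR's quasi-likelihood test was under 0.05 and its log2 fold change was over 1 in size. Trpv4 had 43 and 53 counts in the WT livers, 15, 5 and 23 in the TRPV4-KO livers and 20, 30 and 36 in the GSK219 livers. It was thus lower but not at 0 in the knockout libraries, and the deleted part of the gene is not given in the sources used here. The sexes of the mice are not in the labels: replicate 3 of TRPV4-KO, replicate 3 of GSK219 and replicate 1 of WT had 13681 to 15754 Xist reads and 0 Y-linked reads, and the other 5 livers had 2332 to 2748 reads of Ddx3y, Eif2s3y, Kdm5d and Uty together, so each group held 1 liver of the first kind. Nothing in the labels says more of the replicates than that they are biological, and with 2 WT livers the p-values measure the spread among these 8 animals only.

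None of the 10 genes was called in TRPV4-KO against WT, where 0.265% of all genes tested were called, and none in GSK219 against WT, where 0% were called. At an unadjusted p under 0.05 in edgeR, 5 of the 10 were higher in TRPV4-KO livers, against 7.61% of all genes, and 4 of the 10 were higher in GSK219 livers, against 2.34% of all genes. None of the 10 was lower at that level in either comparison, against 9.5% and 5.87% of all genes. The median log2 fold change over the 10 genes was 0.41 in both comparisons, while the median over all genes was 0.01 in TRPV4-KO and 0.00 in GSK219. A positive log2 fold change was seen in 9 of the 10 in TRPV4-KO (51.2% of all genes) and in all 10 in GSK219 (50.3%). Both comparisons use the same 2 WT livers, so they are not independent of each other. DESeq2 called none of the 10 either (3.23% of all genes called in TRPV4-KO and 0.472% in GSK219). Without the fold minimum it placed 1 of the 10, Slc10a1, under 0.05 in each comparison, at an adjusted p of 0.000166 in TRPV4-KO and 0.0157 in GSK219 (5.24% and 0.699% of all genes). Without TRPV4-KO replicate 3, which differs from the other knockout livers in its sex-linked reads, 6 of the 10 were higher in TRPV4-KO at an unadjusted edgeR p under 0.05 (12.7% of all genes) and 2, Slc10a1 and Nr1h4, had an adjusted p under 0.05 (8.64%), still with none called.

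**Figure D1:**
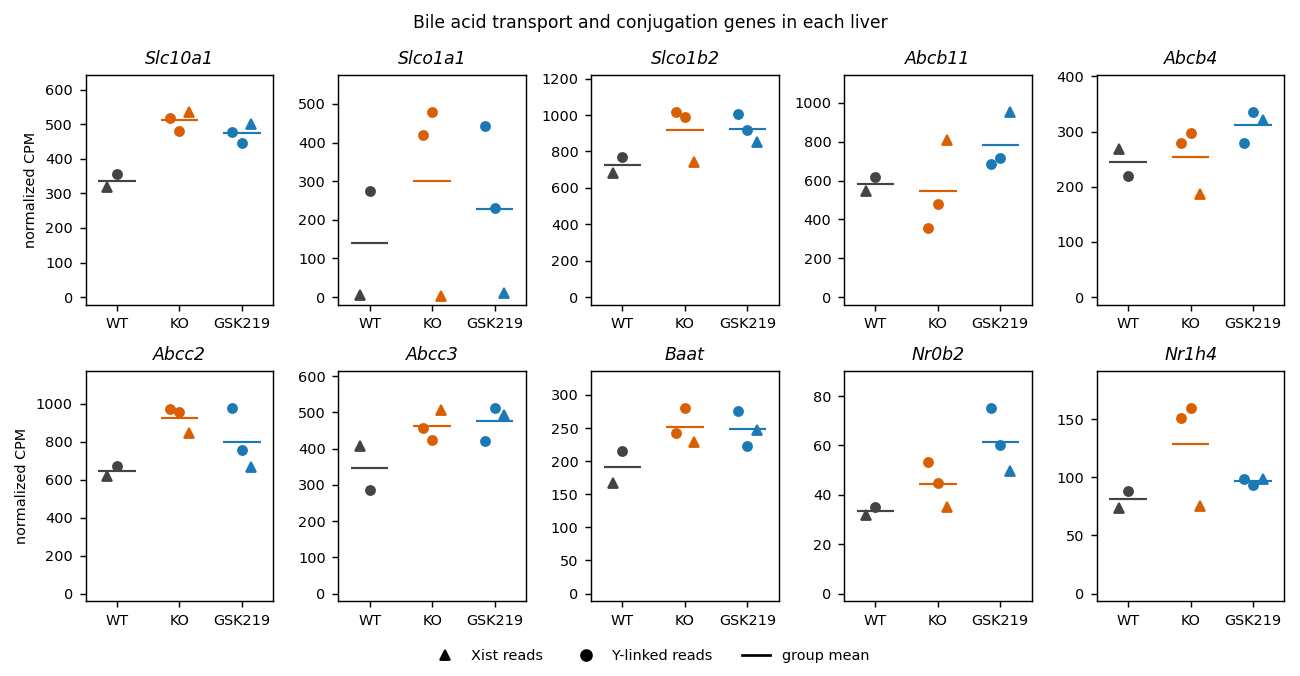
Normalized CPM (vertical axis, linear) of the 10 genes in each of 8 livers, grouped as WT, TRPV4-KO (KO) and GSK219; triangles are livers with Xist reads, circles livers with Y-linked reads, and lines group means. The WT points of Slc10a1 (318 and 355) lie under all others, and the triangles of Slco1a1 lie near the bottom in all 3 groups.

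**Figure D2:**
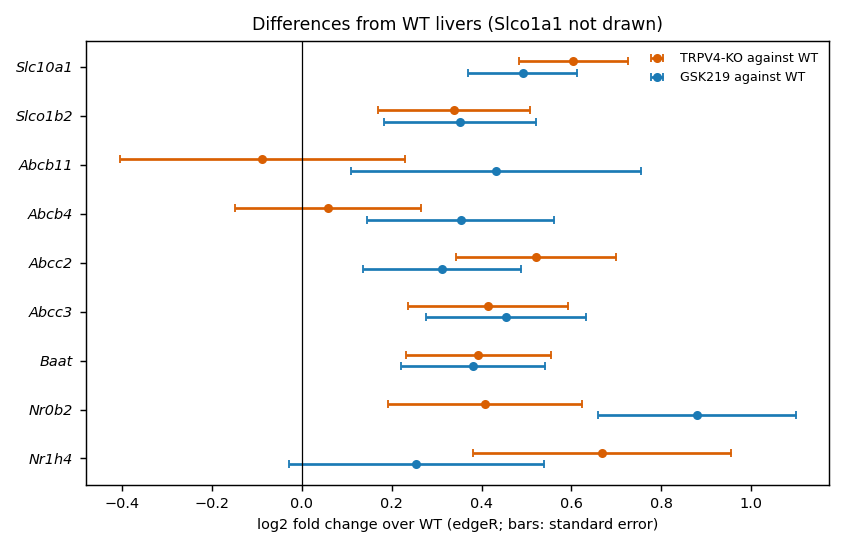
Log2 fold change from WT (horizontal axis) with its standard error (bars) from edgeR for 9 of the 10 genes, in TRPV4-KO and in GSK219 livers. Slc10a1 stands at 0.60 and 0.49, Abcb11 lies on different sides of 0, and Slco1a1 is left out because its standard errors were 2.47 and 2.44.

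The promoters of 4 genes are printed because the results turn on them: Slc10a1 had the smallest p in TRPV4-KO, Slco1a1 the widest range, Nr0b2 the largest difference in GSK219, and Abcb11 knockout livers on both sides of WT. Each is the 250 bases upstream of a RefSeq transcript start (GRCm38.p6), read 5′ to 3′ on the gene's strand. Capitals mark AGGTCA or its complement TGACCT, the core hexamer bound by nuclear receptors, and TTCNNNGAA, a palindrome of the kind bound by STAT factors.
Slc10a1, chr12:80968706-80968955, minus strand: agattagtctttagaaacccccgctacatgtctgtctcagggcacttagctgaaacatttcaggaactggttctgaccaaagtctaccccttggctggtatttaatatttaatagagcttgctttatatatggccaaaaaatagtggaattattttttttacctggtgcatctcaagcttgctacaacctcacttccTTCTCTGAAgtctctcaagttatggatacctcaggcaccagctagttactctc
Slco1a1, chr6:141946963-141947212, minus strand: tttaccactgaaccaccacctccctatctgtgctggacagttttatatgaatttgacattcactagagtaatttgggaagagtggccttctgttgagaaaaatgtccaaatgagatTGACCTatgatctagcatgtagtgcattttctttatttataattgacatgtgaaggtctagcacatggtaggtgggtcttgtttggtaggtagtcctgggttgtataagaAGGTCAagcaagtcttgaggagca
Abcb11, chr2:69342617-69342866, minus strand: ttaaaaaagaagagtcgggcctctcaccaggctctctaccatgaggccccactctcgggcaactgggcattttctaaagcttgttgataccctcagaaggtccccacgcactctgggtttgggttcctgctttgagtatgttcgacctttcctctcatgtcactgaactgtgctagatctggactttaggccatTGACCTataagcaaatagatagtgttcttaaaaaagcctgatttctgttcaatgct
Nr0b2, chr4:133553126-133553375, plus strand: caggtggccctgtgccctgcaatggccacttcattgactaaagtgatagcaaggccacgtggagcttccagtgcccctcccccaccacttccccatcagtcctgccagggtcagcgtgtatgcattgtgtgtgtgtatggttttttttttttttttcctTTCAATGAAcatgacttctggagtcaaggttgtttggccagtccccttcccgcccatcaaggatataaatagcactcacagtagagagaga
The palindrome starts 53 bases before the transcript start of Slc10a1 and 91 bases before that of Nr0b2, and 7.02% of 32851 mouse promoters of this length hold it. The hexamer starts 134 and 24 bases before the start of Slco1a1 and 56 bases before that of Abcb11, and 14% of the promoters hold it. RefSeq promoters matched 8 of the 10 genes, and the hexamer was also found in those of Slco1b2, Abcc2 and Nr1h4, and in a second, downstream promoter of Slc10a1, and the palindrome in that of Slco1b2. Both strands were searched, and the motifs do not overlap in these windows. These matches describe letters in the window and say nothing of binding.

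Among the uptake carriers, Slc10a1 separated the WT livers from all others. It encodes NTCP, the sodium-dependent carrier that takes conjugated bile acids up from blood, and lies on chr12:80953183-80968705 (minus strand). Its CPM was 318 and 355 in WT, 519, 481 and 536 in TRPV4-KO, and 476, 445 and 499 in GSK219. All 6 TRPV4-KO and GSK219 livers lay above both WT livers. The mean was 337 ± 26.5 (SD, n = 2) in WT, 512 ± 28.5 (SD, n = 3) in TRPV4-KO and 473 ± 27.4 (SD, n = 3) in GSK219. In edgeR the log2 fold change was 0.60 ± 0.12 (SE) in TRPV4-KO (edgeR, unadjusted p = 0.000957, adjusted p = 0.0995) and 0.49 ± 0.12 in GSK219 (edgeR, unadjusted p = 0.00333, adjusted p = 0.429). Neither passed, and the fold changes of 1.52 and 1.41 are below the fold minimum. With a term for the kind of sex-linked reads, the difference in TRPV4-KO was 0.61 ± 0.12 (edgeR, adjusted p = 0.0383; 3.54% of all genes were under 0.05 in that fit). Over 15 alternatives the TRPV4-KO difference ran from 0.51 to 0.67, with an edgeR or DESeq2 adjusted p under 0.05 in 4 of them and of 0.581 without WT replicate 1. Slc10a1 itself did not pass a test of that term, at 0.04 ± 0.09 (edgeR, adjusted p = 0.861).

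Slco1a1 encodes OATP1A1, a sodium-independent carrier of bile acids and other organic anions that is known for its higher expression in livers of male mice. It lies on chr6:141907282-141946962 (minus strand). Its CPM was 5.38 and 273.7 in WT, 419 and 479.9 and 2.03 in TRPV4-KO, and 444 and 231.5 and 10.8 in GSK219. The 3 livers with Xist reads held 2.03 to 10.8 CPM, and the 5 livers with Y-linked reads held 231.5 to 479.9 CPM. The level in livers with Xist reads was lower by a log2 difference of -5.93 ± 0.65 (SE) with group in the model (edgeR, adjusted p = 0.00878), in 3 of 3 livers. It was the only one of the 10 genes called for this term, which called 1.91% of all genes. Against that range the group differences could not be resolved: 1.11 ± 2.47 in TRPV4-KO and 0.71 ± 2.44 in GSK219 (edgeR, adjusted p = 0.871 and 0.974). With the term in the fit, the TRPV4-KO difference was 0.29 ± 0.64 (edgeR, adjusted p = 0.852). The predicted gene Gm22036 overlaps it on the same strand and had at most 14 counts, against at least 35 counts of Slco1a1.

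Slco1b2, on the same chromosome at chr6:141629518-141686646 (plus strand), encodes OATP1B2, the carrier of unconjugated bile acids. Its CPM was 682 and 767.4 in WT, 1019, 989 and 739.9 in TRPV4-KO, and 1004, 919.5 and 852 in GSK219. The GSK219 livers were all above WT, while TRPV4-KO replicate 3 lay between the WT livers. The log2 fold changes were 0.34 ± 0.17 and 0.35 ± 0.17 (edgeR, adjusted p = 0.356 and 0.643).

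The 4 export pumps had different patterns across the livers. Abcb11 encodes BSEP, the pump that moves bile acids into the canaliculus, and lies on chr2:69238282-69342616 (minus strand). Its CPM was 547 and 618 in WT, 355, 477 and 811 in TRPV4-KO, and 684, 718 and 955 in GSK219. The highest value of both the TRPV4-KO and the GSK219 group came from the liver with Xist reads, and the TRPV4-KO livers lay on both sides of WT. Relative to WT the log2 fold change was -0.09 ± 0.32 in TRPV4-KO and 0.43 ± 0.32 in GSK219 (edgeR, adjusted p = 0.921 and 0.805). Among livers with Y-linked reads TRPV4-KO stood 0.57 log2 units below WT (416 against 618 CPM, log2 ratio -0.57, 2 livers against 1), and between the livers with Xist reads it stood 0.57 above (811 against 547, 1 against 1). With 1 WT liver of each kind, this split has no replicate check in WT. Genes Gm13613 and Gm13614 overlap Abcb11 on the opposite strand with at most 21 and 2 counts.

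Abcb4 encodes MDR2, which moves phosphatidylcholine into bile and thereby protects the bile ducts, and lies on chr5:8893717-8959231 (plus strand). Its CPM was 269 and 219.7 in WT, 279, 297 and 186 in TRPV4-KO, and 279, 336 and 321 in GSK219. The GSK219 livers were all above WT and the TRPV4-KO livers spanned WT. Its log2 fold change was 0.06 ± 0.21 in TRPV4-KO, and 0.35 ± 0.21 in GSK219 (edgeR, adjusted p = 0.920 and 0.728). TRPV4-KO was 0.39 above WT among livers with Y-linked reads and differed by -0.53 between the livers with Xist reads, again against 1 WT liver of each kind.

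Abcc2 encodes MRP2, which exports bilirubin glucuronides and other conjugates into bile, and lies on chr19:43782192-43840740 (plus strand). Its CPM was 618 and 672 in WT, 973, 958 and 845 in TRPV4-KO, and 978, 756 and 667 in GSK219. All TRPV4-KO livers were above WT, while GSK219 replicate 3 lay just under the higher WT liver. The log2 fold change was 0.52 ± 0.18 in TRPV4-KO (edgeR, unadjusted p = 0.0177, adjusted p = 0.205) and 0.31 ± 0.18 in GSK219 (adjusted p = 0.713).

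Abcc3 encodes MRP3, an efflux pump of the basolateral membrane that returns conjugates to blood, and lies on chr11:94343295-94392997 (minus strand). Its CPM was 408 and 286 in WT, 457, 423 and 506 in TRPV4-KO, and 421, 512 and 492 in GSK219. All 6 other livers were above WT, the nearest of them close to WT replicate 1. Log2 fold changes were 0.41 ± 0.18 in TRPV4-KO and 0.45 ± 0.18 in GSK219 (edgeR, unadjusted p = 0.0470 and 0.0332, adjusted p = 0.284 and 0.571). These values rested on which WT liver was used: they were 0.68 and 0.74 without WT replicate 1 and 0.17 and 0.23 without WT replicate 2.

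Baat encodes the enzyme that joins bile acids to taurine or glycine, and lies on chr4:49489422-49506557 (minus strand). Its CPM was 166 and 215.7 in WT, 243, 280.2 and 229 in TRPV4-KO, and 276, 223 and 247 in GSK219. All 6 TRPV4-KO and GSK219 livers were above both WT livers. The log2 fold change was 0.39 ± 0.16 in TRPV4-KO and 0.38 ± 0.16 in GSK219 (edgeR, unadjusted p = 0.0394 and 0.0441, adjusted p = 0.267 and 0.594). They were 0.21 in both comparisons without WT replicate 1, and 0.58 and 0.59 without WT replicate 2.

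Of the regulators, Nr0b2 (SHP; chr4:133553376-133556536, plus strand) had its highest levels in GSK219 livers. Its CPM was 31.8 and 35.1 in WT, 53.2, 44.9 and 35.1 in TRPV4-KO, and 75.1, 60.1 and 49.4 in GSK219. The GSK219 livers did not overlap with WT, and TRPV4-KO replicate 3 was level with the higher WT liver. Over WT, the log2 fold change was 0.88 ± 0.22 in GSK219 (edgeR, unadjusted p = 0.00359, adjusted p = 0.444) and 0.41 ± 0.22 in TRPV4-KO (adjusted p = 0.382). The adjusted p in GSK219 ranged from 0.0581 with DESeq2 to 1 over 15 alternatives. GSK219 against TRPV4-KO, the direct comparison, gave 0.47 ± 0.19 (edgeR, unadjusted p = 0.0380, adjusted p = 0.796), and the 2 groups overlapped. It was 0.30 without GSK219 replicate 1.

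Nr1h4 (FXR; chr10:89454234-89533585, minus strand) had its highest levels in a pair of knockout livers. Its CPM was 73.4 and 88.4 in WT, 151, 159 and 75.3 in TRPV4-KO, and 98.3, 93.1 and 98.1 in GSK219. TRPV4-KO replicates 1 and 2, both with Y-linked reads, lay above all other livers, and replicate 3 lay between the WT livers. The log2 fold change was 0.67 ± 0.29 in TRPV4-KO (edgeR, unadjusted p = 0.0470, adjusted p = 0.284) and 0.25 ± 0.28 in GSK219 (adjusted p = 0.900). Without TRPV4-KO replicate 3 it was 0.94 (edgeR, adjusted p = 0.0146), below the fold minimum of 1. That fit keeps only knockout livers with Y-linked reads. With the term for sex-linked reads the TRPV4-KO difference was 0.56 ± 0.23 (edgeR, adjusted p = 0.219). TRPV4-KO stood 0.81 above WT among livers with Y-linked reads and 0.04 above between the livers with Xist reads, against 1 WT liver of each kind.

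Counted over the 10 genes, the TRPV4-KO livers lay wholly above WT for 4 genes (Slc10a1, Abcc2, Abcc3 and Baat), where 15.5% of all genes did so. Without TRPV4-KO replicate 3 the count was 9, all but Abcb11, where 30.2% of all genes did so. That count sets only knockout livers with Y-linked reads against WT livers of both kinds, so it mixes group with kind. It includes Slco1a1. The GSK219 livers lay wholly above WT for 8 genes, all but Slco1a1 and Abcc2, where 11.7% of all genes did so. Slc10a1, Abcc3 and Baat were above WT in all TRPV4-KO and GSK219 livers. The share of all genes with that joint pattern, which rests on the same WT livers, was not counted. None of the 10 lay wholly below WT in either comparison, against 17.7% and 15.6% of all genes. Within the livers of each kind of sex-linked reads, all GSK219 livers were above WT in both kinds for 9 genes (18.6% of all genes), with Slco1a1 mixed, and all TRPV4-KO livers for 7 genes (25.4% of all genes), with Slco1a1, Abcb11 and Abcb4 on opposite sides. This split sets 1 liver against 1 for Xist reads and 2 against 1 for Y-linked reads, so it has no replicate check in WT. Between GSK219 and TRPV4-KO livers no difference passed: edgeR called 0 of the 10, where 0.0992% of all genes were called, and DESeq2 also called 0 (0.54%). Nr0b2 alone had an unadjusted p under 0.05, higher in GSK219 (2.64% of all genes), none of the 10 was free of overlap in either direction (4.35% and 5.85%), and their median log2 fold change was 0.00.

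**Figure D3:**
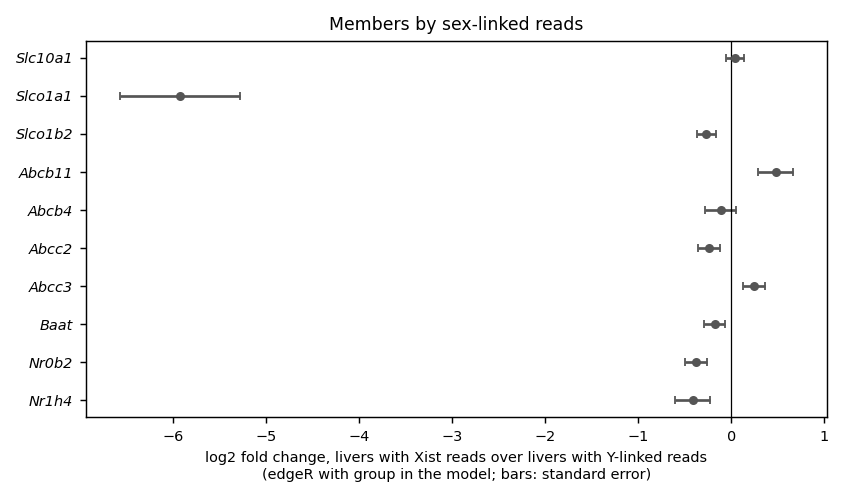
Log2 fold change of livers with Xist reads (3) over livers with Y-linked reads (5) for the 10 genes (horizontal axis), with standard errors (bars), from the edgeR fit with group in the model. Slco1a1 stands at -5.93 and the other 9 genes between -0.42 and 0.48.

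Apart from Slco1a1, none of the 10 genes passed the test of the term for sex-linked reads. The nearest were Nr0b2 at -0.38 ± 0.12 and Slco1b2 at -0.27 ± 0.10, lower in livers with Xist reads, and Abcb11 at 0.48 ± 0.19, higher there (edgeR, adjusted p = 0.115, 0.163 and 0.197). Of the 58 other bile acid genes tested, 7 were called for this term (1.91% of all genes). Slco1a4, Abcc4 and Abcb1a, which are transporters, were higher in livers with Xist reads, with log2 differences of 1.63, 1.40 and 1.43. Cyp7b1, an oxysterol hydroxylase, Scp2, a sterol carrier and peroxisomal thiolase, the efflux pump Abcg2 and the sulfotransferase Sult2a8 were lower there, by -3.83, -1.51, -1.20 and -1.62 (edgeR, adjusted p of the 7 from 0.00022 to 0.0435). The kind of each liver was read from its library and not from the labels, and each group has 1 liver with Xist reads.

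Per kilobase of gene length, the levels of the 10 genes spanned from 206 ± 35.5 CPM per kb for Slc10a1 to 29.1 ± 5.30 for Abcb4 (mean and SD over 8 livers). Slco1b2 was next at 177 ± 26.5, and Slc10a1 lay above it in 8 of 8 livers. Abcb11 (125 ± 37.0) and Baat (121 ± 18.7) did not separate, with Abcb11 higher in 5 of 8 livers. Baat was above Abcc2 (94.8 ± 17.6) in 8 of 8 livers, Abcc2 above Abcc3 (76.9 ± 12.9) in 6 of 8, and Abcc3 above Nr1h4 (45.4 ± 14.2) in 8 of 8. Nr1h4, Slco1a1 (44.2 ± 39.0) and Nr0b2 (42.5 ± 13.0) were not ordered beyond their spread. The highest liver was 237 times the lowest for Slco1a1 and between 1.49 and 2.69 times for the other 9 genes. The order was unchanged for 10 of 10 genes when counts were scaled as TPM.

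**Figure D4:**
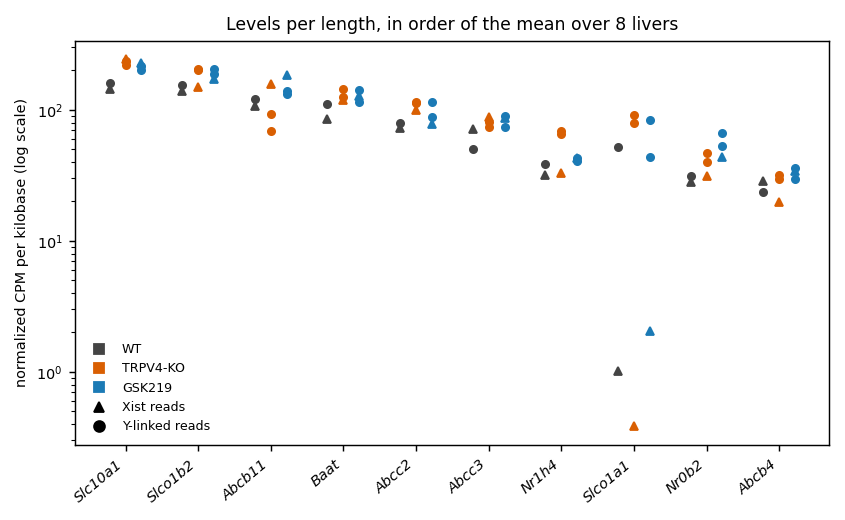
Normalized CPM per kilobase of gene length (vertical axis, log scale) of the 10 genes in 8 livers, ordered by mean; colors are the groups and shapes the kind of sex-linked reads. Levels run from about 206 for Slc10a1 to 29.1 for Abcb4 on average, and the 3 low points of Slco1a1 are the livers with Xist reads.

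Of 63 other bile acid genes in 4 lists, 58 were tested and 0 were called in each of the 3 comparisons. The lists were synthesis enzymes, other transport and canalicular lipid export, regulators and sensors, and detoxication enzymes. In TRPV4-KO, 14 of the 58 were higher at an unadjusted edgeR p under 0.05 (7.61% of all genes were) and 1, Vdr, was lower (9.5% of all genes). In GSK219, 4 were higher (2.34% of all genes were), namely Cyp46a1, Akr1d1, Ugt1a1 and Gstm1, and again only Vdr was lower (5.87%). With a term for the kind of sex-linked reads, 19 of the 58 were higher in TRPV4-KO and 10 in GSK219 at that level. The shares of all genes were 9.41% and 3.73%. DESeq2 called 3 of the 58 in TRPV4-KO (Cyp46a1, Nr1i3 and Vdr) and 1 in GSK219 (Cyp46a1), where it called 3.23% and 0.472% of all genes. With the term for sex-linked reads, edgeR called 3 in TRPV4-KO (Abcb1a, Cyp46a1 and Vdr) and 0 in GSK219. Before the fold minimum, 3.54% and 0.0265% of all genes had an adjusted p under 0.05 in that fit.

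The detoxication list had the largest median difference, 0.73 on the log2 scale in TRPV4-KO and 0.56 in GSK219 over 8 genes. All 8 log2 fold changes were positive in each (51.2% and 50.3% of all genes), counting Cyp3a11 at 0.05 ± 0.35 (SE) in TRPV4-KO. Ugt1a1, which glucuronidates bilirubin, had a mean of 81.0 ± 21.8 CPM in WT (n = 2), 134 ± 26.2 in TRPV4-KO (n = 3) and 121 ± 16.5 in GSK219 (n = 3), and Gstm1, a glutathione transferase, had 845 ± 77.8, 1354 ± 311 and 1174 ± 149.7 CPM. Their log2 fold changes were 0.73 and 0.58 for Ugt1a1 and 0.68 and 0.47 for Gstm1 (edgeR, adjusted p = 0.174, 0.569, 0.178 and 0.608). Papss2, which makes the sulfate donor, stood at 0.72 in TRPV4-KO and Cyp3a11, a bile acid hydroxylase, at 0.53 in GSK219 (edgeR, adjusted p = 0.257 and 0.770). The count for this list depended on the fit. With a term for the kind of sex-linked reads, 4 of the 8 had an edgeR adjusted p under 0.05 in TRPV4-KO (3.54% of all genes did), against 0 without it, and none did in GSK219 (0.0265%). They were Ugt1a1 at a log2 fold change of 0.81, Papss2 at 0.81, the sulfotransferase Sult2a8 at 0.76 and the sulfotransferase Sult1a1 at 0.96 (edgeR, adjusted p = 0.0240, 0.0245, 0.0383 and 0.04995), all below the fold minimum. At an unadjusted edgeR p under 0.05, 6 of the 8 were higher in each comparison with the term (9.41% and 3.73% of all genes), and 3 and 2 without it. Over all 58 genes, 8 had an adjusted p under 0.05 in TRPV4-KO with the term, the other 4 being Cyp46a1, Akr1d1 and Abcb1a, which were higher, and Vdr, which was lower.

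The synthesis list had a median of 0.21 in TRPV4-KO and 0.12 in GSK219 over 16 genes. Cyp46a1, the cholesterol 24-hydroxylase better known from brain, had 19 and 14 counts in WT, 66, 46 and 72 in TRPV4-KO and 69, 45 and 46 in GSK219. It was low in all livers, and both WT livers lay under the other 6. Its log2 fold changes were 1.92 ± 0.36 and 1.71 ± 0.36 (edgeR, adjusted p = 0.0853 and 0.391). Akr1d1, the reductase that saturates the steroid ring of bile acid precursors, stood at 0.93 and 0.55 (edgeR, adjusted p = 0.115 and 0.561). Slc27a5, the ligase that activates bile acids for Baat, stood at 0.41 in TRPV4-KO and Acot8, a peroxisomal thioesterase, at 0.31 in GSK219 (edgeR, adjusted p = 0.165 and 0.650). Cyp7a1, the rate-limiting enzyme of bile acid synthesis and a gene that SHP represses, had 55.2 and 209 CPM in WT, 395, 352 and 96.7 in TRPV4-KO, and 99.5, 72.2 and 79.9 in GSK219. Its log2 fold change in GSK219 against TRPV4-KO was -1.75 ± 0.64 (edgeR, unadjusted p = 0.0292, adjusted p = 0.749), and TRPV4-KO replicate 3 was within the range of the GSK219 livers.

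**Figure D5:**
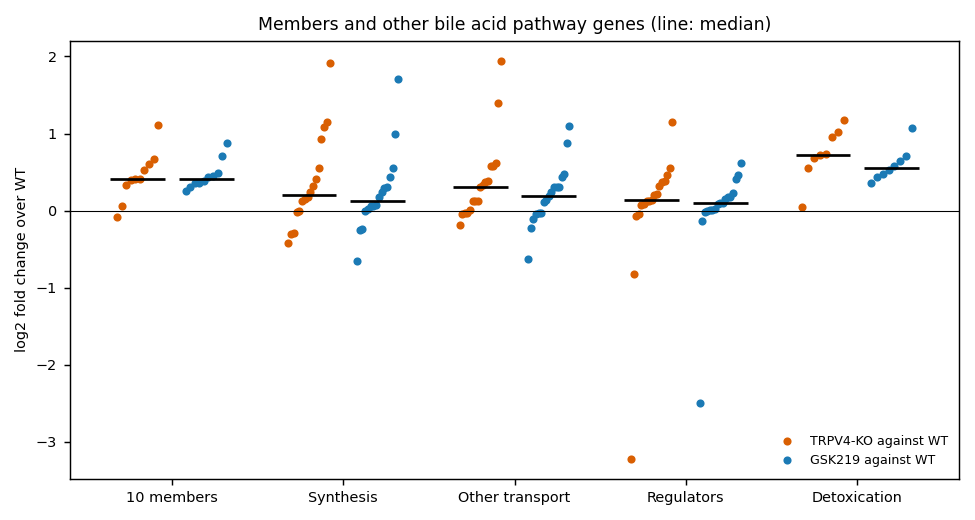
Log2 fold change from WT (vertical axis) of the 10 transport and conjugation genes and of 58 other bile acid genes in 4 lists, in TRPV4-KO and GSK219 livers; each point is a gene and black lines are medians. Medians run from 0.10 to 0.73 and the 2 lowest points are Vdr.

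The other transport list had medians of 0.31 and 0.19 over 17 genes. Slc10a5, an orphan relative of Slc10a1, stood at 0.58 and 0.30, Ephx1, the microsomal epoxide hydrolase, at 0.61 and 0.44, and Abcg5, a subunit of the canalicular sterol pump, at 0.57 in TRPV4-KO (edgeR, adjusted p between 0.123 and 0.678). Abcc6, a hepatic efflux transporter, stood at 0.25 in GSK219 (edgeR, adjusted p = 0.693). The regulators had medians of 0.14 and 0.10 over 17 genes. Among them the xenobiotic receptors Nr1i3 (CAR) and Nr1i2 (PXR) stood at 1.15 and 0.55 log2 units in TRPV4-KO (edgeR, adjusted p = 0.183 and 0.202), and Klb, the coreceptor for FGF15, and Nr1i3 at 0.47 and 0.62 in GSK219 (adjusted p = 0.701 and 0.714). Vdr, the vitamin D receptor, which nonparenchymal liver cells express more than hepatocytes, had 58 and 19 counts in WT, 1, 3 and 8 in TRPV4-KO and 7, 9 and 4 in GSK219. Its log2 fold changes were -3.22 ± 0.74 and -2.50 ± 0.70 (edgeR, adjusted p = 0.115 and 0.486). In GSK219 against TRPV4-KO, Slc27a5, Akr1d1, Slc10a5, Myo5b, Abcg5, Nr1i2, Nr1i3, Papss2 and Gstm1 had log2 fold changes from -0.53 to -0.21, and Cyp3a11 and Nr1d1 had 0.49 and 0.84, with edgeR adjusted p from 0.816 to 0.955.

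Summed levels of marker genes of hepatocytes, other cells and the acute phase differed between the groups beside these values. The summed CPM of 10 hepatocyte markers was 64247 to 73671 in WT, 88606 to 109387 in TRPV4-KO and 85914 to 97043 in GSK219. Alb makes up much of this sum, at 31636 and 44375 CPM in WT. The 10 acute-phase genes of hepatocytes summed to 27179 to 38564, 11123 to 13394 and 12215 to 15634 CPM in the same order. The 10 neutrophil markers summed to 72.9 to 84.7, 6.80 to 17.2 and 6.17 to 15.8 CPM, with Mpo, Elane, Ly6g or Ngp at 0 counts in 4 of the 6 TRPV4-KO and GSK219 livers and no neutrophil marker at 0 in WT. The 10 Kupffer cell and macrophage markers summed to 1666 to 1884, 460 to 999 and 489 to 1158 CPM. The 10 cholangiocyte markers summed to 129 to 160, 120 to 128 and 102 to 125 CPM. The part of these shifts in the differences of the 10 genes was not tested, and in whole liver fewer cells of a type cannot be told apart from less RNA per cell.

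The series also holds mouse pancreatic stellate cells treated with DMSO or with 25 µM Yoda1, an agonist of the channel PIEZO1, at n = 3 each. Their table lists 3 of the 10 genes, Abcc2, Abcc3 and Nr1h4, and limma called none of them, where 1.01% of 15145 genes tested were called. Each preparation of cells gave 1 library per treatment, and with the preparation as a replicate block limma called 1 of the 3, Nr1h4, lower with Yoda1 by a log2 fold change of -1.24 (adjusted p = 0.0472), where 1.51% of all genes were called.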

How the data were processed

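Liver RNA (Ribopure kit, libraries by Novogene) was sequenced in 8 livers. The deposited table holds raw counts per gene, made by the authors; Trim Galore and HISAT2 2.0.5 are named in the submitters' processing notes, and the counter, strandedness and build are not given in the sources used here (coordinates match GRCm38). Without strand, reads of genes that overlap on opposite strands cannot be told apart. In the table, 7 further columns of counts were not used. Groups came from the sample titles. Counts were filtered (edgeR filterByExpr, minimum count 10), scaled by TMM and fitted with edgeR 4.0.16 (quasi-likelihood, robust) in R 4.3.3 over all 8 livers with group as the only term; p-values were adjusted over 15118 genes. Counts of replicates differed by more than sampling noise (chi-square per degree of freedom 16.8 to 111). Alternatives were DESeq2 1.42.0, other scalings, no filter, a replicate block, a term for sex-linked reads, only the 2 groups compared, no fold minimum and each liver left out. An interaction of group with that kind, fitted after seeing the data, rests on arms of 1 liver and is not reported. Members and gene lists were chosen with earlier results of these data known. The text names the 10 genes, Trpv4, sex-linked genes and, per list and comparison, the 3 pathway genes with the smallest p; Alb and zero-count markers were named after their values were seen, and genes called only by an alternative likewise. Levels between genes were divided by the deposited gene length. Stellate cell values are a per-library signal deposited by the authors, with its scaling not stated and its depth unknown; log2(value + 1) was tested with limma 3.58.1 for genes with at least 10 in at least 3 libraries. Libraries of the same stellate cell preparation, numbered in the labels, deviated together (r across genes 0.26 to 0.53 in 3 of 3 pairs), so the preparation pairs them; the unpaired fit and the fit with the replicate block are both given. Both tests were checked on simulated data. The stellate cell check planted larger changes than those of the genes named here, so it does not measure how well such changes are found.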

Additional observations from a re-analysis of the deposited data

Results flagged for a closer look

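The stellate cell libraries lie outside the liver comparisons. In them Abcc3, the basolateral efflux pump, was picked out because its signal with Yoda1 was above that of the control libraries. Its deposited signal was 217, 202 and 237 with DMSO and 408, 499 and 997 with Yoda1. That the treatments did not overlap was the rule by which it was picked out. The share of all stellate cell genes without overlap was not counted. The means were 219 ± 17.7 and 635 ± 317 (SD, n = 3 each), and the log2 fold change on the log2(value + 1) scale was 1.43 ± 0.34 (SE; limma, adjusted p = 0.0978, and 0.0716 with the preparation as a replicate block). Over the other 8 alternatives the limma adjusted p ranged from 0.0528, without Yoda1 replicate 3, where the log2 fold change was 1.04, to 0.275.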

How the results depend on the processing

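None of the 10 genes was called in any of the 3 liver comparisons under the 15 alternatives run for each. Counts of calls over all genes moved more. TRPV4-KO against WT called 17 genes higher and 23 lower, of which 0 were bile acid pathway genes. It called 119 and 363 with DESeq2 (pathway 3), 40 and 100 with no filter on low counts (pathway 2), 78 and 351 with the replicate block (pathway 2), 73 and 252 with a term for sex-linked reads (pathway 3), and 9 and 11 with only the 2 groups compared. With each liver left out in turn it called 1 to 149 higher and 2 to 573 lower, and 0 to 4 pathway genes, with the highest counts without TRPV4-KO replicate 3. GSK219 against WT called 0 higher and 0 lower (354 and 888 genes had an unadjusted edgeR p under 0.05); it called 10 and 63 with DESeq2 (pathway 1), 0 and 1 with upper-quartile scaling, 1 and 7 with no filter, 0 and 9 with the replicate block, 2 and 2 with the sex-linked term, 0 and 2 with only 2 groups, and 0 to 2 lower with a liver left out. GSK219 against TRPV4-KO called 48 and 44 with DESeq2, 20 and 18 with no filter, 17 and 17 with the sex-linked term, 4 higher with only 2 groups, and 4 to 41 higher and 4 to 38 lower with a liver left out. The pathway genes called by an alternative were Cyp46a1, Vdr, Nr1i3, Abcb1a and Nr1d1.

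Signs of small differences turned. In TRPV4-KO against WT, Abcb4 was -0.0022 with upper-quartile scaling and -0.088 to 0.24 with a liver left out, and Abcb11 was -0.49 to 0.15. In GSK219 against WT, Slco1a1 was -0.24 to 5.42 with a liver left out. In GSK219 against TRPV4-KO, Baat was 0.037 with upper-quartile scaling and 0.0073 with only 2 groups, Slco1a1 was 0.48 with the replicate block and 0.24 with the sex-linked term, and with a liver left out Baat was -0.095 to 0.074, Slco1a1 -1.31 to 0.17, Slco1b2 -0.12 to 0.10 and Abcc3 -0.022 to 0.12. Upper-quartile scaling moved the median of all genes by -0.050 in TRPV4-KO against WT and by 0.045 in GSK219 against TRPV4-KO, about as far as Abcb4 (from 0.059) and Baat (from -0.012) moved. The cause of the other turns was not tested. Of other differences from WT that moved by over 1.5 times, in GSK219 Abcb11 was 0.19 with the replicate block and 0.27 without GSK219 replicate 3, Abcb4 was 0.22 without WT replicate 2, Abcc2 was 0.14 without GSK219 replicate 1, and Nr1h4 was 0.13 without WT replicate 1, 0.40 without WT replicate 2 and 0.44 with the replicate block; in TRPV4-KO Nr0b2 was 0.26 without TRPV4-KO replicate 1 and Slco1a1 ran from 0.13 to 5.80. In GSK219 against TRPV4-KO, Nr0b2 ran from 0.30 to 0.62, Abcb11 from 0.29 to 0.92, Abcb4 from 0.12 to 0.42, Abcc2 from -0.38 to -0.094 and Nr1h4 from -0.23, without TRPV4-KO replicate 2, to -0.68, without TRPV4-KO replicate 3 (edgeR, adjusted p = 0.0381), against -0.41 in all livers (adjusted p = 0.903). Same-numbered livers had a mean r across genes of 0.14 (7 pairs, from -0.48 to 0.58). The negative values, -0.43 and -0.48, set WT replicate 1 against livers of the other kind of sex-linked reads. The WT livers also deviate as mirror images, so these values do not settle whether the replicate numbers pair the livers. Livers of the same kind of sex-linked reads deviated together (11 pairs, mean r 0.43, from 0.15 to 0.63), and group was the only term of the reported fit. In stellate cells, Nr1h4 passed with the replicate block at -1.24 (limma, adjusted p = 0.0472).

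WT rests on 2 livers, and the count of genes wholly above WT in TRPV4-KO, 4 of the 10, was 9 without TRPV4-KO replicate 3, the only knockout liver with Xist reads. Both comparisons share those livers. Where 1 WT liver is left out, the remaining one is assumed to vary like the other groups.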

Other observations

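Nr1h4, which encodes the bile acid receptor FXR, had a deposited signal in stellate cells of 51.1, 38.1 and 43.4 with DMSO and 18.8, 13.2 and 23.3 with Yoda1. These values did not overlap, but the share of all stellate cell genes without overlap was not counted. The log2 fold change was -1.24 ± 0.22 (SE; limma, adjusted p = 0.0582), and the adjusted p was 0.0472 with the preparation, which the labels number, as a replicate block. Abcc2 had 6.23, 10.1 and 8.07 with DMSO and 12.2, 6.58 and 94.6 with Yoda1, so that 1 library set its mean (limma, adjusted p = 0.498).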
